A study of Mus musculus with 6 samples.

Results

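The genes described here are 10 that encode the NF-κB transcription factor subunits, inhibitors that hold them in check, and the related nuclear protein Bcl3, in mouse follicular B cells. They were listed by name and role, with no threshold on a measured value, although earlier results of these data were known when the list was made. They are Nfkb1, Nfkb2, Rel, Rela and Relb for the subunits, Nfkbia, Nfkbib, Nfkbie and Bcl3 for the IκB family, and Tnfaip3 for the enzyme A20. All 10 names were found, as 12 of the 25017 entries (20458 gene names) in the table of gene expression. The table lists a gene once for each coding sequence group that the authors' software kept apart, and Nfkb2 and Tnfaip3 have 2 entries each.

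NF-κB factors are dimers that wait in the cytoplasm, bound by IκB proteins, until a receptor signal activates the IκB kinase (IKK) complex, which marks the inhibitor for destruction and frees the dimer to enter the nucleus. In the alternative pathway, the kinase NIK drives the processing of the Nfkb2 product p100 into p52, which pairs with RelB. In mature B cells the first (canonical) pathway answers signals that include the antigen receptor, CD40 and Toll-like receptors, and the second answers signals that include the survival factor BAFF. The division is not strict. The paper names BAFF as the most likely inducer of canonical NF-κB signaling in marginal zone B cell development. It adds that genetic loss of canonical signaling does not raise activation markers. It also reports, as data not shown, normal survival of myosin IIa-deficient B cells with BAFF in culture. From this the paper proposes that BAFF signaling as a whole does not require myosin IIa. Several of the inhibitors are themselves NF-κB targets, which gives the system its negative feedback.

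The cells were follicular B cells with the surface phenotype B220+AA4.1-CD23+CD21lo, sorted from C57BL/6 mice of genotype CD23Cre+Myh9wt/fl or CD23Cre+Myh9fl/fl, with 3 samples of each genotype and 6 in all. Myh9 encodes the heavy chain of non-muscle myosin IIa. Both genotypes carry Cre recombinase under the control of the CD23 promoter, so deletion begins only once a B cell expresses CD23, and the wt/fl cells have lost 1 copy of Myh9 and are haploinsufficient rather than wild-type. The labels do not give the age of the mice. The study sought signaling pathways behind an activated surface phenotype of the fl/fl cells, and NF-κB is among those that act in these cells. The paper reports that its RNA sequencing gave no clue to the pathways involved.

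Expression is given as FPKM, the number of sequenced fragments scaled to transcript length and to library size, so levels of different genes can be compared. The authors pooled the 3 samples of a genotype into 1 value, so the values below come without a spread between samples, no difference was tested, and words such as higher or lower describe these pooled values only. Log2 ratios are of fl/fl over wt/fl with 1 FPKM added to each, which understates the change of weakly expressed genes. The depth of each sample is unknown. Myh9 was at 50.6 FPKM in wt/fl cells against 21.1 FPKM in fl/fl cells, or 41.7% of the wt/fl level. This value is for the whole gene, while only exon 3 is floxed. It therefore does not measure the intact transcript or protein that is left. The paper checked deletion by exon 3 mRNA and by western blot. B cell genes were abundant in both, with Cd79a, a signaling chain of the antigen receptor, at 1098 and 1115 FPKM.

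The promoters are shown for the genes on which the description turns: Rel, the most abundant member, Nfkbia and Bcl3, which had the highest and the lowest log2 ratio, and Tnfaip3, a classical feedback gene. Each line is the 250 bases before the transcription start, 5′ to 3′ on the gene's strand, from RefSeq on GRCm38.p6. Capitals mark matches to the κB consensus decamer, the DNA element that NF-κB dimers bind, searched on both strands with overlapping matches merged in the capitals.
Nfkbia, chr12:55492648-55492897, minus strand: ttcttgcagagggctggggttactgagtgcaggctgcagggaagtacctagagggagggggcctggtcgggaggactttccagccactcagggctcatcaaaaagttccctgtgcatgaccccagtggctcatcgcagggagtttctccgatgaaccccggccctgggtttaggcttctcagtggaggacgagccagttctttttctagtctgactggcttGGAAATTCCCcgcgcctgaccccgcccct
Rel, chr11:23770970-23771219, minus strand: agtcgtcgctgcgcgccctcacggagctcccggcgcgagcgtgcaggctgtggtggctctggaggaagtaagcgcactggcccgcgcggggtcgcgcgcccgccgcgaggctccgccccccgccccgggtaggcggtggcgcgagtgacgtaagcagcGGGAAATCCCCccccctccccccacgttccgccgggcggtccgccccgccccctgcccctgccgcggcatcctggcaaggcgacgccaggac
Tnfaip3, the farther upstream of its 2 starts, chr10:19015411-19015660, minus strand: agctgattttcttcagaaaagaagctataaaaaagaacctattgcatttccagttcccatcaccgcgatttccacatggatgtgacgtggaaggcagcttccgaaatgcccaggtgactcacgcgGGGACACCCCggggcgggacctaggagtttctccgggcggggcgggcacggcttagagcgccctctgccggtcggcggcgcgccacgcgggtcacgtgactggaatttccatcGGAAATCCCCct
Bcl3, chr7:19822756-19823005, minus strand: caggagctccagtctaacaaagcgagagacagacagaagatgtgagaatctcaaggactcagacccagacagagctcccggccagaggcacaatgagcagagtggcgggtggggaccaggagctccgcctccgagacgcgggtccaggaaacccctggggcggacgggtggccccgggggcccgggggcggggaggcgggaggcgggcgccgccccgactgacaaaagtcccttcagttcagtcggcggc

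Promoter sequence was matched for 8 of the 10 members, all but Nfkb1 and Relb. Of these 8, 5 had at least 1 match within 250 bases before a start (Nfkb2, Rel, Nfkbia, Nfkbie and Tnfaip3) and 3 had none (Rela, Nfkbib and Bcl3). Over all 27025 genes with such a window, 8.23% had a match, and among 26 known NF-κB targets listed for this work 8 had one (30.8%). The matches nearest to a start began 11 bases before that of Nfkb2 and 12 bases before that of Tnfaip3, and the match of Nfkbia began 29 bases before its start. A match in these letters is not evidence of binding, and a promoter without one may have sites elsewhere.

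Rel was by far the most abundant of the 10 genes. It encodes c-Rel, the subunit typical of mature lymphocytes, and lies on chromosome 11 from 23641728 to 23670970 (positions are as deposited, on a build other than GRCm38 whose sequence names follow mm9). Its level was 139 FPKM in wt/fl cells against 120 FPKM in fl/fl cells, a log2 ratio of −0.21. Rel stood 2.72 times above the next member in wt/fl and 2.03 times above it in fl/fl, and at percentile 95.4 of the levels of the 9866 genes that reached 1 FPKM on average. The other subunits were all below 50 FPKM.

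Nfkb1, which encodes p105 and its product p50, the usual partner of c-Rel and p65 (chromosome 3 from 135247618 to 135354511), was at 49.3 FPKM in wt/fl cells against 49.9 FPKM in fl/fl cells. Nfkb2, which encodes p100 and p52 (chromosome 19 from 46379226 to 46401646), was at 38.0 and 39.5 FPKM when its entries were summed. These are nearly equal values, with log2 ratios of 0.02 and 0.05. The deposited interval of Nfkb2 is shared with the gene Psd, and that of Nfkbib with Gm6537, so these positions are not those of the member alone. Rela, which encodes the strong activator p65 (chromosome 19 from 5637489 to 5648130), was at 30.9 FPKM in wt/fl cells against 34.0 FPKM in fl/fl cells, a log2 ratio of 0.13. Relb, the partner of p52 in the alternative pathway (chromosome 7 from 20191570 to 20214787), was at 27.2 and 24.7 FPKM, a log2 ratio of −0.14. The subunits thus lay on both sides of 0, with 3 higher and 2 lower in fl/fl, where 50.5% of the 9866 genes were higher.

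**Figure D1:**
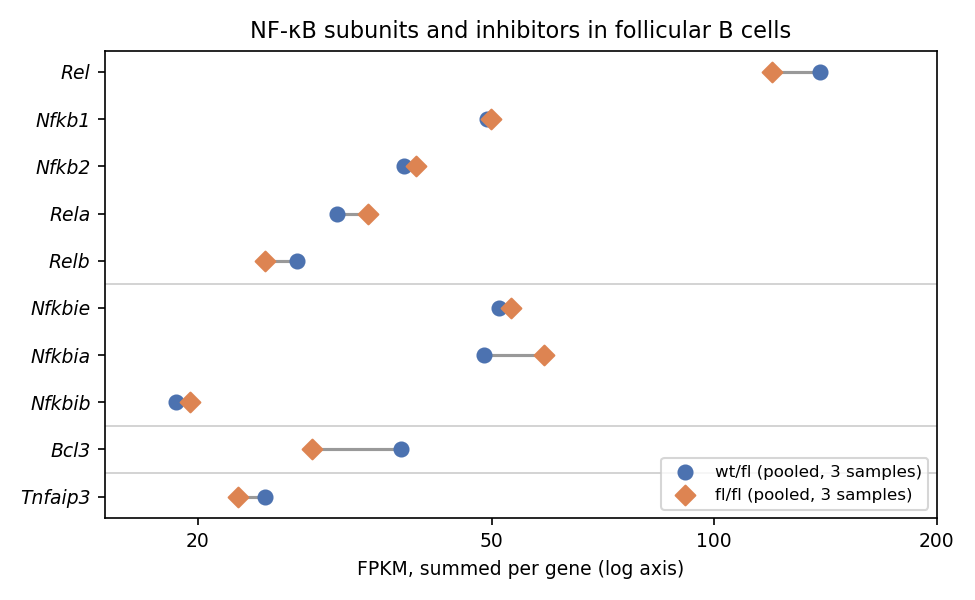
Pooled FPKM of each NF-κB member (log axis) in wt/fl (circles) and fl/fl (diamonds) follicular B cells, 1 value per genotype with no error available, with lines between the values of a gene and grey rules between subunits, classical IκB genes, Bcl3 and Tnfaip3. Rel is far to the right in both genotypes, and the widest gaps are those of Bcl3 and Nfkbia, in opposite directions.

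In the summed mRNA of the 5 subunits, which was 284 FPKM in wt/fl cells against 268 FPKM in fl/fl cells, Rel made up 48.9% and 44.7%. Rela made up 10.9% and 12.7%, so Rel mRNA was 4.50 times that of Rela in wt/fl cells and 3.53 times in fl/fl cells. Nfkb1 made up 17.3% and 18.6%, Nfkb2 13.4% and 14.8%, and Relb 9.58% and 9.21%. These are shares of mRNA and say nothing of the dimers formed, which depend on protein and on processing of p105 and p100.

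The classical IκB proteins cover the nuclear localization signal of the dimers and keep them in the cytoplasm. Nfkbia encodes IκBα, the inhibitor that is destroyed and made anew fastest after stimulation (chromosome 12 from 56590395 to 56593634). It was at 48.8 FPKM in wt/fl cells against 58.9 FPKM in fl/fl cells, which is 20.6% higher and the highest log2 ratio among the members, 0.27. Nfkbie, which encodes IκBε (chromosome 17 from 45692664 to 45700117), was at 51.1 and 53.2 FPKM, and Nfkbib, which encodes IκBβ (chromosome 7 from 29541192 to 29551543), at 18.7 and 19.5 FPKM. Their log2 ratios were both 0.06. All 3 classical IκB genes were thus at least slightly higher in fl/fl, as were 50.5% of the 9866 genes. Of the 9866 genes, 72.4% had a log2 ratio larger in size than that of Nfkbie, and 71.4% larger than that of Nfkbib. Most of the difference in the sum of the 3 classical IκB genes (119 and 132 FPKM) was that of Nfkbia.

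Set against the subunits, summed mRNA of the 3 classical IκB genes was higher in fl/fl, mostly through Nfkbia. Part of the difference lies in the lower subunit sum (284 and 268 FPKM). The IκB-like genes Bcl3, Nfkbid and Nfkbiz, left out of this sum, went the other way, with log2 ratios of −0.39, −0.11 and −0.08. The summed FPKM of the 3 classical IκB genes was 0.417 of that of the 5 subunits in wt/fl and 0.491 in fl/fl. The ratio of Nfkbia to Rel mRNA was 0.351 in wt/fl and 0.491 in fl/fl, which is 1.40 times higher. That pair was singled out after the values were seen, as the most abundant subunit and the inhibitor with the highest log2 ratio. Rel also had the lowest log2 ratio of the 5 subunits, so the size of the ratio of Nfkbia to Rel owes part to the choice.

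**Figure D2:**
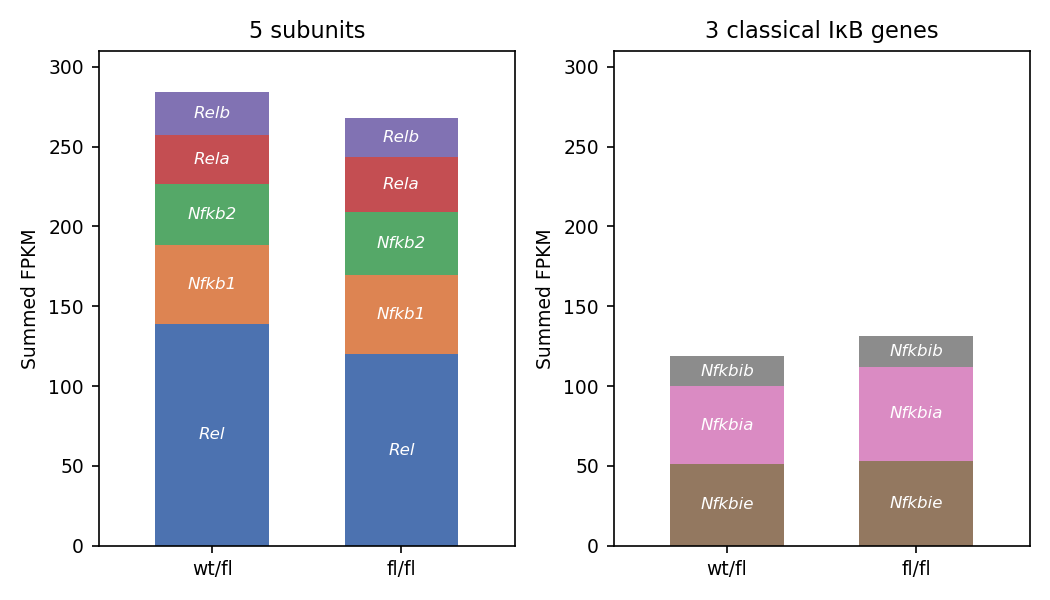
Stacked pooled FPKM of the 5 subunit genes (left) and of the 3 classical IκB genes (right) in wt/fl and fl/fl cells, on the same linear scale from 0, with no error available. The subunit stack is lower in fl/fl (268 against 284 FPKM), mostly in Rel, and the IκB stack is higher (132 against 119 FPKM), mostly in Nfkbia.

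Bcl3 had the lowest log2 ratio of the members. It encodes an unusual, nuclear IκB protein that binds p50 and p52 homodimers on DNA and can turn them into activators, so it is not a cytoplasmic inhibitor (chromosome 7 from 20393810 to 20408104). Its level was 37.7 FPKM in wt/fl cells against 28.6 FPKM in fl/fl cells, or 0.759 of the wt/fl value, a log2 ratio of −0.39. Of the 9866 genes, 6.65% had a log2 ratio larger in size, and of the 5671 genes between 10 and 200 FPKM, where all members lie, 3.17% did. The corresponding shares for Nfkbia were 15.3% and 9.66%, and for Rel 23.1% and 16.6%. Differences of this size were therefore common across the transcriptome for Rel and less so for Bcl3, which was the most displaced member on either scale.

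Tnfaip3 encodes A20, a ubiquitin-editing enzyme that shuts off signaling upstream of IKK (chromosome 10 from 18720716 to 18735216). Summed over its entries it was at 24.7 FPKM in wt/fl cells against 22.7 FPKM in fl/fl cells, a log2 ratio of −0.12. The entries did not behave alike. The larger was at 13.4 and 13.9 FPKM and the smaller at 11.3 and 8.74 FPKM, so the smaller entry made up 45.7% of Tnfaip3 in wt/fl cells against 38.6% in fl/fl cells, and with the larger entry alone the log2 ratio was 0.05. For Nfkb2 the larger entry was at 34.6 and 37.3 FPKM and the smaller at 3.47 and 2.26 FPKM, or 9.12% and 5.71% of the gene. Which coding sequence each entry stands for is not given by the table's names, and fragments shared between transcripts of a gene were divided by the authors' software, so the split is less certain than the sum.

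Ordered by level in wt/fl, the members ran from Rel through Nfkbie, Nfkb1, Nfkbia, Nfkb2, Bcl3, Rela, Relb and Tnfaip3 to Nfkbib. In fl/fl, Nfkbia moved from rank 4 to rank 2 and Bcl3 from rank 6 to rank 7, while Rel stayed at rank 1 and Relb, Tnfaip3 and Nfkbib at ranks 8, 9 and 10. Apart from Rel, no member exceeded the next in either genotype by more than 1.32 times, and without a spread between samples it cannot be said which of these neighbors differ.

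None of the 10 members reached a log2 ratio of 0.5 in size (1.41-fold on this scale), a size that 3.45% of the 9866 genes reached, 1.27% higher and 2.18% lower in fl/fl. At so low a background, a count of 0 among 10 genes does not set the members apart from other genes. At a limit of 0.3, which 11.9% of all genes reached, Bcl3 was the only member past it. The median log2 ratio of the members was 0.03, against 0.0026 for all genes, and their median size was 0.13, against 0.11. Among the 5671 genes between 10 and 200 FPKM, the median size was 0.095 and 6.72% reached 0.3, while 1 gene makes up 10% of the members. The lower and upper quartiles of the log2 ratio were −0.13 and 0.06 for the members. For the 5671 genes they were −0.08 and 0.10, so the members were not clearly more widely spread than genes of like level.

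**Figure D3:**
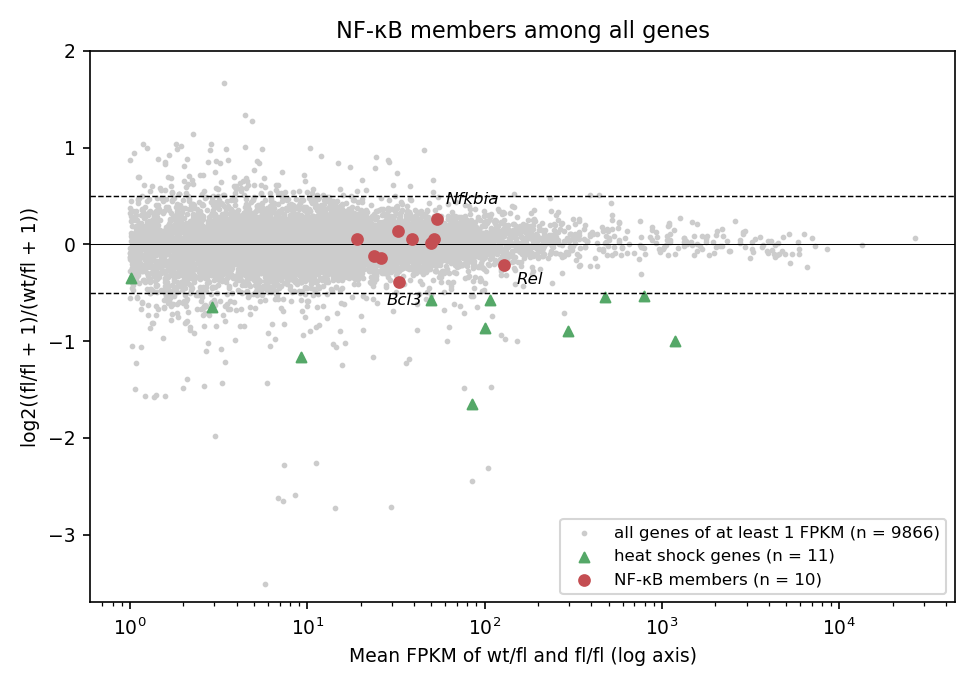
Log2 ratio of fl/fl over wt/fl (1 FPKM added) against mean FPKM (log axis) for all 9866 genes of at least 1 FPKM (grey dots), 11 heat shock genes (triangles) and the 10 NF-κB members (red circles), with dashed lines at −0.5 and 0.5. The members lie between −0.39 and 0.27, inside the dashed lines, while 10 of the 11 heat shock genes lie below −0.5, beside 2.18% of all genes.

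The machinery upstream of the members was described by lists written for this work. In the IKK list, Ikbkb, the kinase subunit that drives the classical pathway, was at 67.4 FPKM in wt/fl cells against 61.0 FPKM in fl/fl cells. Chuk, the IKKα subunit, was at 28.0 and 27.0 FPKM, and Ikbkg, the regulatory subunit NEMO, at 12.3 and 13.3 FPKM. Map3k14, which encodes NIK, was at 12.7 and 14.4 FPKM, and the related kinase genes Tbk1 and Ikbke were at 42.3 and 42.6 FPKM and at 4.14 and 3.61 FPKM. Of these 6 genes, 0 passed a log2 ratio of 0.5 in size, beside 3.45% of all genes. Of the 6, 3 were higher and 3 lower, and the median was −0.02. At that share, a count of 0 or 1 in this list or those below does not set a list apart from other genes.

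Among 17 adaptors and ubiquitin ligases, 0 passed 0.5 in size (beside 3.45% of all genes), with a median of 0.06. The most abundant were Prkcb, a kinase of the antigen receptor pathway (122 and 123 FPKM), and Bcl10, an adaptor that links the antigen receptor to IKK (93.0 and 109 FPKM). Of 11 receptor genes, 9 had a mean of at least 1 FPKM and 1 of these passed (11.1%, beside 3.45% of all genes). It was Tnfrsf1b, a TNF receptor, at 5.71 and 3.67 FPKM with a log2 ratio of −0.52. The most abundant receptor genes were Cd79b (1638 and 1739 FPKM) and Cd79a, the signaling chains of the antigen receptor, and Tnfrsf13c, the BAFF receptor (613 and 570 FPKM). The list of 14 other IκB-like proteins and brakes had 13 genes of at least 1 FPKM, a median of −0.0064 and 0 past the limit (beside 3.45% of all genes). Its most abundant genes were Tax1bp1, an A20 adaptor (127 and 146 FPKM), the deubiquitinase gene Otulin, listed under the older symbol Fam105b (85.5 and 102 FPKM), and the ubiquitin ligase gene Itch (39.5 and 39.3 FPKM).

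**Figure D4:**
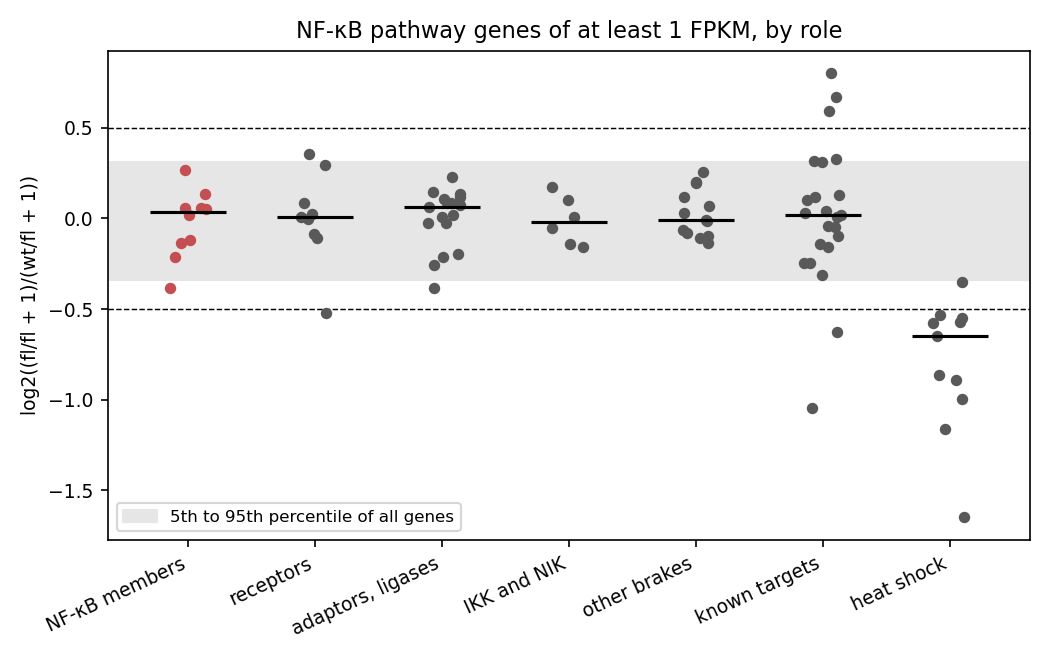
Log2 ratio of fl/fl over wt/fl (1 FPKM added) for each gene of at least 1 FPKM in 7 lists, with a bar at the median of each list, a grey band for the central 90% of all genes (5th to 95th percentile, −0.34 to 0.31) and dashed lines at −0.5 and 0.5. Medians of the NF-κB lists lie near 0, the known targets are the most widely spread of them, and the heat shock genes lie below the rest.

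Known NF-κB targets were more widely spread than the members. Of 30 listed genes, 23 had a mean of at least 1 FPKM, with a median log2 ratio of 0.02, and 5 of these passed 0.5 in size (21.7%, beside 3.45% of all genes), 3 higher and 2 lower. Tnf, which encodes the inflammatory cytokine TNF, was at 12.4 FPKM in wt/fl cells against 22.3 FPKM in fl/fl cells, a log2 ratio of 0.80. Lta, which encodes the related cytokine lymphotoxin α, was at 39.2 and 62.9 FPKM (0.67), and the death receptor gene Fas at 4.43 and 7.19 FPKM (0.59). The survival gene Bcl2l1 was at 1.76 and 0.785 FPKM (−0.63) and the chemokine gene Ccl3 at 1.74 and 0.325 FPKM (−1.05), both close to the lowest level considered. Both were under 1 FPKM in fl/fl and met the mean of 1 FPKM only through wt/fl. The count of 2 lower, and with it the share of 21.7%, thus owes part to that filter. The most abundant targets were Ltb (242 and 262 FPKM), Cd83 (159 and 134 FPKM) and Ccr7 (146 and 118 FPKM), a lymphotoxin subunit, an activation marker and a homing receptor. Abundant targets thus lay on both sides of 0, and no test of this list was made.

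Other transcripts differed between the genotypes in these pooled values, and their part in the NF-κB values was not tested. All 11 listed heat shock genes were lower in fl/fl, as were 4880 of the 9866 genes. The summed level of the 11 was 3933 FPKM in wt/fl cells against 2278 FPKM in fl/fl cells. Hspa8, Hsp90ab1 and Hspe1 were the most abundant. Among neutrophil markers, all 6 genes of at least 1 FPKM were lower, beside 4880 of the 9866 genes. Ltf (2.31 and 0.118 FPKM) met the mean of 1 FPKM only through wt/fl, as did Hspa1a among the heat shock genes (1.27 and 0.777 FPKM). The summed level of the 8 listed neutrophil genes that were found was 364 and 64.6 FPKM. Mpo and Elane were at 0 in fl/fl and under 1 FPKM in wt/fl. S100a9 and S100a8 made up most of the sum, and neutrophils also express NF-κB genes. Erythroid markers summed to 48.3 and 6.72 FPKM and T cell markers to 23.8 and 22.1 FPKM. Macrophage and monocyte markers summed to 87.2 and 58.7 FPKM, mostly through Lyz2 (72.6 and 44.9 FPKM), while the 5 genes of at least 1 FPKM had a median log2 ratio of −0.02, with 2 higher and 3 lower. Of 6 marginal zone B cell markers, 2 passed 0.5 in size (33.3%, beside 3.45% of all genes). These were Plac8 (138 and 82.1 FPKM) and Cd9 (4.61 and 2.52 FPKM), both lower. Of the other 4, 2 were lower and 2, S1pr3 and Cd1d1, were higher (0.19 and 0.06). In bulk RNA, fewer cells of a type and less RNA per cell cannot be told apart. For the 14 immediate-early genes, which answer to many of the signals that also activate NF-κB, 12 reached 1 FPKM on average, with a median of −0.03. Dusp1 alone passed, at 15.3 and 8.12 FPKM (8.33% of the 12, beside 3.45% of all genes). The 10 B cell markers had a median of 0.04 with 0 past the limit (beside 3.45% of all genes). The highest was Fcer2a (439 and 588 FPKM, 0.42), which encodes CD23, the marker used in the sort and the source of the Cre promoter.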

How the data were processed

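RNA of sorted follicular B cells (3 samples per genotype, 6 in all) was amplified and sequenced by the authors. Their processing notes name Bowtie, TopHat and Cufflinks, and the builds mm10 and GRCm38. The positions of the deposited table differ from GRCm38 (of the 10 members only Rela overlaps its GRCm38 position) and its sequence names are in the style of mm9, so they are given as deposited and were not converted.

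The deposited FPKM values are 1 per genotype and entry, pooled over samples by the authors, with HET read as wt/fl and KO as fl/fl. The fold change, test statistic, p and q columns hold the authors' own comparison and were not used. The status column marks 11467 entries as tested, all 12 entries of the members among them. Entries whose symbol had become a date (44) were left out, FPKM was summed per gene name (20433 names), and genes averaging 1 FPKM or more over the genotypes were kept (9866), all 10 members among them. Log2 ratios had a pseudocount of 1 FPKM. Whole reads could not be recovered: with the best common step, 27.0% of 660 low values in wt/fl and 33.0% of 931 in fl/fl lay within 0.1 fragment of a whole number, where evenly spread values would give 20.0%.

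Members and lists were chosen with earlier results of these data known. Named genes were the members, Myh9, all IKK genes and, from each other list, the 3 most abundant and those past a log2 ratio of 0.5 in size. A few others are named where they limit a count or a sum. Some list genes are summarized only, and some are not reported here. Ly6g was not analysed here. Alternatives were other pseudocounts, filters, scalings and limits, and the highest entry in place of the sum. Python 3.11.15, pandas 2.3.3 and matplotlib 3.10.9 were used.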

Additional observations from a re-analysis of the deposited data

How the results depend on the processing

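With 1 pooled value per genotype, no replicate could be left out. No paired analysis was possible because the table carries no value per sample. The log2 ratios of the 10 members were recomputed under 5 alternatives (pseudocounts of 0.1 and 0.5, upper quartile scaling, the median of all genes set to 0, and the highest entry in place of the sum). Of the 50 values, 49 moved by less than 0.1 and kept their sign. The exception was Tnfaip3, at 0.05 with its highest entry in place of −0.12, since that entry leaves out the smaller one. Upper quartile scaling multiplied fl/fl by 0.996. Most of the 50 values could hardly move. Members with 1 entry have the same value by either rule, and the scalings shift all genes by nearly the same small amount. The pseudocount matters little at the levels of these members. Only Nfkb2 and Tnfaip3, with 2 entries each, could change with the choice of entry.

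At a limit of 0.3 in place of 0.5, 1 member (Bcl3) was past it, and 538 genes were higher and 637 lower. At a limit of 1, 9 genes were higher and 40 lower, with 0 members. A pseudocount of 0.1 gave 238 higher and 346 lower genes, and a mean of at least 5 FPKM gave 49 and 98, against 125 and 215 as reported, and in both cases 0 members passed. Of 24 recomputed list medians, 22 moved by less than 0.1, and 3 medians near 0 changed sign (receptors with upper quartile scaling, and the IKK list and the other brakes with the stricter filter of 5 FPKM). The median of the heat shock genes was −0.65 as reported, −0.85 with a pseudocount of 0.1 and −0.87 at a mean of at least 5 FPKM, where 9 of the 11 genes were left. Depth per sample is unknown, so the smallest difference that these values could resolve is unknown too.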

Other observations

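The genes Ltb, Tnf and Lta lie next to each other on chromosome 17, within the deposited positions 35331451 to 35342296, and each encodes a ligand of the TNF family whose receptors signal to NF-κB. Tnf and Lta had log2 ratios of 0.80 and 0.67, while Ltb, the most abundant of the 3, went from 242 to 262 FPKM (0.12). The cluster was singled out after its values were seen, and the difference between Ltb and its neighbors was not tested.

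Relb and Bcl3 both lie on chromosome 7, with starts 202 kb apart, and were both lower in fl/fl (−0.14 and −0.39). Between them lie 3 other genes of at least 1 FPKM. Apoe, which encodes a lipid carrier, was at 81.9 FPKM in wt/fl cells against 44.7 FPKM in fl/fl cells (−0.86), while Clptm1 (20.5 and 21.0 FPKM) and Tomm40 (13.4 and 15.4 FPKM) were not lower. The genes of this stretch, named after their values were seen, thus did not share a direction.

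Nfkbiz, which encodes the nuclear protein IκBζ, had a summed level of 24.3 FPKM in wt/fl cells against 22.9 FPKM in fl/fl cells. Its smaller entry was at 7.69 and 3.63 FPKM and its larger at 16.6 and 19.2 FPKM, in opposite directions. As for Tnfaip3 and Nfkb2, the smaller entry was the one that was lower in fl/fl, a pattern noticed in the values and not tested, in 3 genes whose split between entries is uncertain.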
